A study of Homo sapiens with 34 samples.

Results

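The 38 genes described here belong to the pluripotency network, the set of regulators and markers that distinguishes undifferentiated embryonic stem cells (ESCs) from their descendants. They come from a list of symbols that uses no measured value, drawn up with earlier results of these data known, and each was read from its most abundant RefSeq transcript in a table that holds 23189 gene symbols. The RNA came from H1, a widely used human ESC line, on its way to cardiomyocytes. Cells carried a lentiviral shRNA against NKX2-5 (a cardiac homeobox factor), ZEB2 or ZNF503 (both zinc finger factors), and WT cells were H1 cells infected with virus for an shRNA against GFP or with an empty vector. All 4 lines had been selected with puromycin and received the same treatment, the GSK3β inhibitor CHIR99021 on the first day, the WNT inhibitor IWP2 afterwards and insulin late in the course. Libraries were made at day 0 (undifferentiated cells), day 2, day 6 and day 10, with 2 replicates in each of 15 groups. The series holds no day 10 library of the ZNF503 shRNA line. The study discarded those samples for poor RNA, which it ascribed to a high amount of cell death at that day. WT and ZEB2 shRNA cells at day 10 had 4 replicates, of which replicates 3 and 4 were used, because the values of the other columns do not follow the gene identifiers. Each shRNA line rests on 1 shRNA, the one with the strongest knockdown of those the study tried, so an effect of the targeted gene and an effect of that shRNA cannot be told apart.

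Pluripotency is held by POU5F1 (OCT4), SOX2 and NANOG, which bind together at enhancers, switch on their own genes and each other, and keep genes of the germ layers silent. Around them stand partner transcription factors, factors of the naive state (the state of the early epiblast, of which human ESC lines in standard culture express a part), genes named from the germline and early embryo, the LIN28 proteins, which hold back the maturation of let-7 microRNAs, and chromatin and growth regulators. When WNT signaling is raised, ESCs pass through a mesendoderm state before they become cardiac mesoderm, and the network is shut down along the way.

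The libraries of day 0 held 38772103 to 90814577 counts, those of day 2 held 14630405 to 87850810, those of day 6 held 13807473 to 61514547 and those of day 10 held 9189943 to 29549874. Levels are given as CPM, read counts scaled to libraries of 1 common size, and a count of 3, taken as the limit of detection, corresponded to between 0.033 and 0.326 CPM. The targeted genes were low at the start of the course. NKX2-5 held at most 16 counts in any library of days 0 and 2, and in NKX2-5 shRNA cells its level was 1.30% of that in WT cells at day 6 and 1.38% at day 10. At day 6 it was also low in the ZNF503 shRNA line (3.69%). ZEB2 in its shRNA cells was at 66.4% of WT at day 2, 58.5% at day 6 and 49.5% at day 10, and at day 0, where it held at most 14 counts, at 118%. By real-time PCR the study reported a stronger reduction of ZEB2 than these counts show, at a day its text does not name. ZEB2 was also below WT where it was not targeted, at 24.9% and 21.5% in NKX2-5 and 67.5% and 12.4% in ZNF503 shRNA cells at days 2 and 6. ZNF503 in its shRNA cells was at 90.1% of WT at day 2 (1.38 ± 0.53 against 1.53 ± 0.61 CPM, SD, n = 2) and at 6.98% at day 6, beside 8.25% in NKX2-5 shRNA cells. At day 6 each of the 3 genes was thus lower than in WT cells in a line with another target as well. A knockdown of ZNF503 was not measurable at days 0 and 2, and the differences given below for those days belong to the library labelled ZNF503 shRNA.

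The network's own binding sequence was looked for in the promoters of its genes, because OCT4 and SOX2 bind next to each other on a joint element. Promoter sequences, 250 bases before each transcription start in RefSeq (GRCh38.p14), were at hand for 31 of the 38 genes with 42 starts. None was used for SALL4, POU5F1, USP44, LIN28A, POLR3G, PRDM14 and THY1. The joint element, searched as CATTGT, any 1 base and ATGCAAA in a row on both strands, occurred in 2 of 35093 promoters (0.0057%), and NANOG was the only one of these genes to hold it. It lies 120 to 107 bases before the NANOG start on the reverse strand. The octamer ATGCAAAT, the letters that OCT4 binds, occurred in 1.63% of promoters and in those of PIM2, a kinase gene with 2 sites, and SFRP2, a secreted WNT antagonist. The SOX letters CATTGT, which the joint element contains, were found in 9.29% of promoters and in 16.7% of the starts here (ESRRB, JARID2, KLF5, LIN28B, NANOG, PHC1 and SALL2). The windows that hold the joint element and the octamers are shown with the element in capitals, from chr12:7789262-7789315 (+ strand), chrX:48919157-48919204 (- strand), chrX:48919120-48919167 (- strand) and chr4:153789091-153789138 (- strand) in turn.
NANOG joint element: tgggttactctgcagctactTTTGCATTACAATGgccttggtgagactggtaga
PIM2 distal octamer: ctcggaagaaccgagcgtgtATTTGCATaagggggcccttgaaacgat
PIM2 proximal octamer: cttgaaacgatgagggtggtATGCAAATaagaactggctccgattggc
SFRP2 octamer: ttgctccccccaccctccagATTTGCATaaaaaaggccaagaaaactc
A match of letters is a description of the sequence, and occupancy was not measured here.

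The WT course shows how the network was dismantled in unperturbed differentiation. By day 2, 24 of the 38 genes were lower and 5 were higher than at day 0 at 5% false discovery rate (FDR) with no limit on the fold change, where 44.1% of all 17217 genes tested passed (20.9% higher and 23.1% lower). With the study's limit for day 2 (4-fold at 10% FDR), 13 were lower and 2 higher, and 8.36% of all genes were called (5.26% higher and 3.1% lower). The median log2 fold change of the 38 genes was -1.29, and that of all genes was -0.00819. At day 6, 31 were lower and 3 higher (60.9% of all genes passed 5% FDR, 31.3% higher and 29.6% lower), and 20 were lower and 1 higher by the limit of 8-fold at 1% FDR (10.2% of all genes, 6.28% higher and 3.94% lower). At day 10 the corresponding counts were 33 lower and 3 higher (73.8% of all genes, 39.1% higher and 34.7% lower), and 26 lower and 2 higher (15.5%, 10% higher and 5.45% lower). The medians were -3.48 at day 6 and -5.02 at day 10, beside 0.0292 and 0.102 for all genes. The 3 comparisons share the libraries of day 0. In bulk RNA, fewer cells that express a gene and less RNA per cell cannot be told apart.

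**Figure D1:**
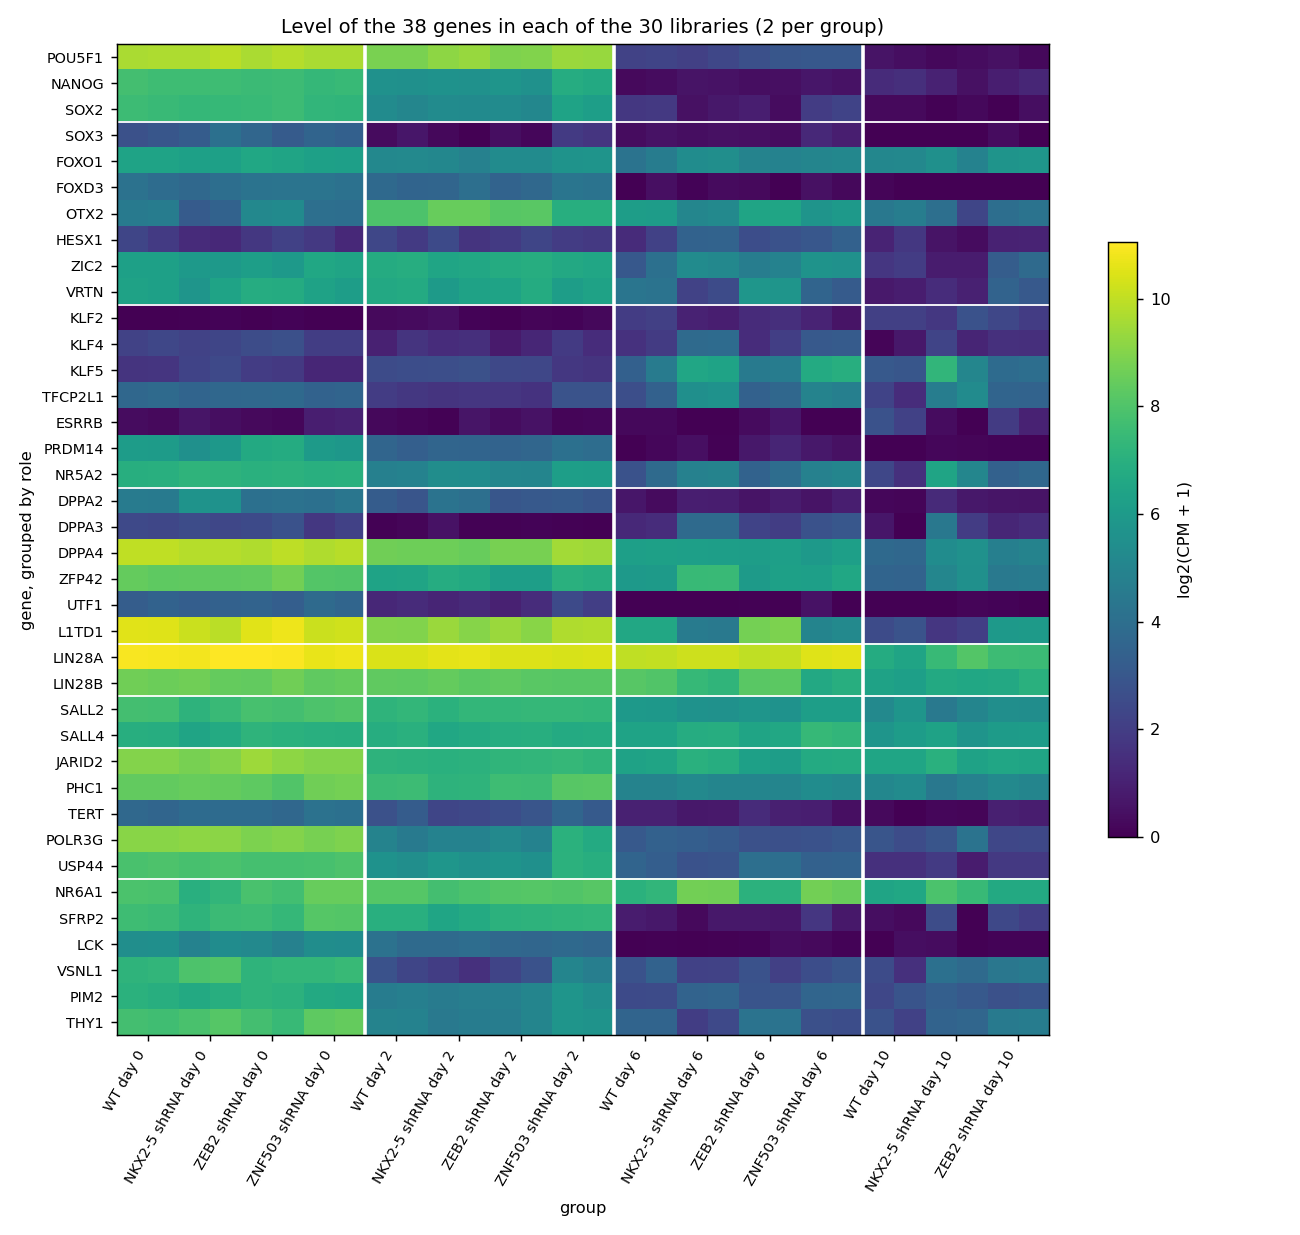
Level of the 38 pluripotency network genes in each of the 30 libraries used, as log2(CPM + 1), with genes in order of their role (vertical) and libraries in order of day and line (horizontal). Bright colours are high levels and dark colours low levels. Most genes are bright at day 0 and darker at days 6 and 10. KLF2 and KLF5 run the other way, and OTX2 is at its highest in the libraries of day 2.

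The 3 core factors did not leave together. NANOG (NM_024865, hg19 chr12:7940390-7951742, + strand) was at 211 and 195 CPM in the WT replicates of day 0, 47.2 and 45.9 at day 2, 0.217 and 0.289 at day 6 and 1.60 and 1.83 at day 10. Both replicates of each later day lay far below those of day 0, and those of day 10 lay above those of day 6. The log2 fold change was -2.08 at day 2 (SE 0.11, adjusted p = 4.7e-07, edgeR's quasi-likelihood test with Benjamini-Hochberg adjustment, as for all adjusted p-values here). SOX2 (NM_003106, chr3:181429713-181432224, + strand) followed a like course to day 2, from 189 and 176 CPM to 39.8 and 33.1, a log2 fold change of -2.27 (SE 0.12, adjusted p = 5.1e-07), and went on to 2.47 and 2.55 CPM at day 6 and 0.206 and 0.215 at day 10. POU5F1 (NM_002701, chr6:31132114-31148508, - strand) kept more of its level, at 808 and 820.1 CPM at day 0 and still 451 and 447 at day 2 (log2 fold change -0.81, SE 0.09, adjusted p = 7.8e-05), which was 55.1% of the level at day 0, beside 22.9% for NANOG and 20.0% for SOX2. By day 6 POU5F1 had dropped to 3.60 and 3.75 CPM (log2 fold change -7.76, SE 0.13, adjusted p = 2.9e-10) and by day 10 to 0.515 and 0.323 CPM. Reads of POU5F1 may be split with 3 near-identical copies, a retrogene and pseudogenes, whose rows summed to 118% of the POU5F1 level at day 0, 115% at day 2 and 127% at day 6, so its level is uncertain. At day 10 the copies summed to 530% of it.

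Among the 38 genes, 20 were lower by at least 2-fold at 5% FDR already at day 2, 8 reached this by day 6 but not at day 2, and 10 had not reached it by day 6. The early class held the largest falls of day 2. POLR3G (NM_006467, chr5:89767565-89810374, + strand), a subunit of RNA polymerase III found in stem cells, was at 537 and 547 CPM at day 0 and at 30.2 and 22.0 at day 2 (log2 fold change -4.32, SE 0.17, adjusted p = 1.1e-07). VSNL1 (NM_003385, chr2:17720393-17838285, + strand), a calcium sensor otherwise known from neurons, went from 145 and 155 to 5.85 and 3.92 CPM (-4.86, SE 0.31, adjusted p = 1.9e-06). In both genes the replicates of a day lay close together and the days did not overlap. Other early genes were USP44 (a deubiquitinase, -2.35), THY1 (a surface glycoprotein, -2.78), PIM2 (-2.29) and JARID2 (a Polycomb partner, -1.82). All 4 remained lower at day 6 and day 10, and JARID2 leveled off, at 141 and 135 CPM on day 2, 81.7 and 86.4 on day 6 and 89.2 and 89.5 on day 10.

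**Figure D2:**
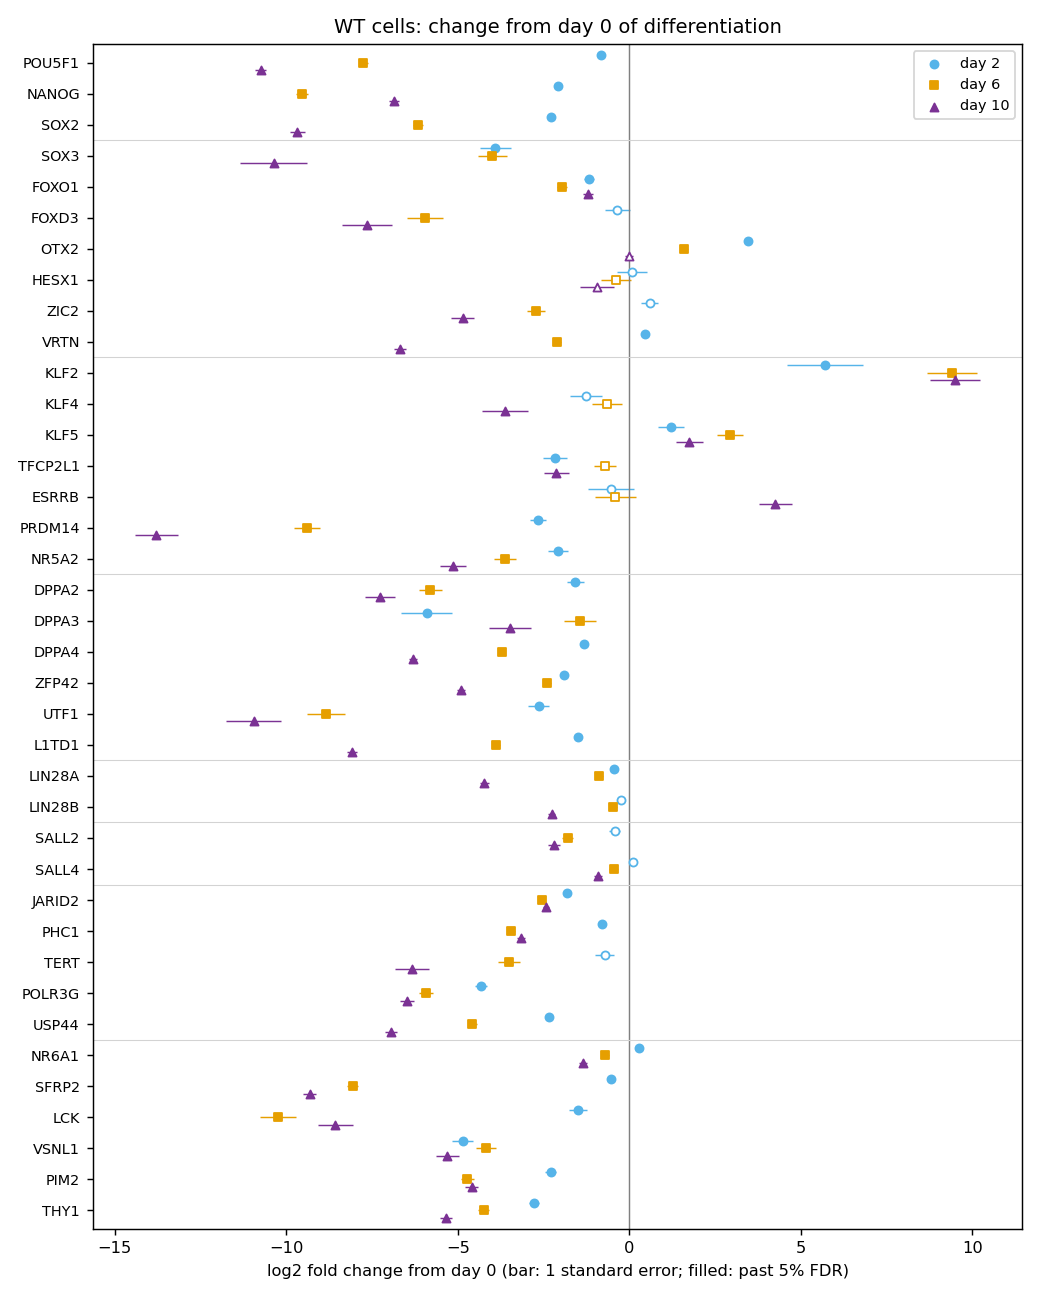
Log2 fold change of each of the 38 genes in WT cells at day 2, day 6 and day 10 against day 0 (horizontal), with genes by role (vertical). Points are edgeR estimates from 2 libraries a group, bars are 1 SE, and filled points passed 5% FDR, as 24 lower and 5 higher genes did at day 2.

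All 6 genes of the germline and early embryo were lower at day 2. L1TD1, an RNA-binding protein derived from a LINE element, was at 1514 and 1442 CPM at day 0, 513 and 493 at day 2, 98.3 and 97.7 at day 6 and 4.74 and 6.02 at day 10. DPPA4, a chromatin-associated factor whose gene neighbours DPPA2 on chromosome 3, was at 1013 and 1005, 399.7 and 389.8, 74.3 and 76.1, and 12.6 and 11.9 CPM on the same days. Both genes were lower on every later day, without overlap between replicates of different days. ZFP42 (REX1), a zinc finger factor, went from 342 and 320.0 CPM to 83.1 and 87.6 at day 2 (log2 fold change -1.91) and paused at 59.3 and 64.5 at day 6. DPPA3 (STELLA), a maternal and germ cell protein, was at 4.35 and 4.13 CPM at day 0, at 0.0322 and 0.123 at day 2, where it held at most 3 counts, and again at 1.43 and 1.61 at day 6. UTF1, a chromatin-bound factor, ended with no count in either library of day 10, at least 39.1-fold lower than at day 0.

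The partner transcription factors took different paths. SOX3, a relative of SOX2, was lower from day 2 on (5.74 and 6.70 CPM at day 0, 0.257 and 0.613 at day 2) and had no count at day 10, at least 26.1-fold lower. FOXD3, a forkhead repressor, was at 16.8 and 14 CPM at day 0 and 12.5 and 10.8 at day 2 and then fell to 0 and 0.385 CPM at day 6 (log2 fold change -5.96, adjusted p = 5.5e-06), a size that moved by more than 1.5 times without either library of day 6 (-11.6 to -5.29, the lowest with no count left). ZIC2, a zinc finger factor, was at 77.3 and 77.9 CPM at day 0, 111 and 116 at day 2 and 7.19 and 15.7 at day 6. VRTN, whose product vertnin controls vertebral number in pigs, rose slightly at day 2 (0.44, SE 0.11, adjusted p = 0.0078), a call lost without either library of day 0 or without replicate 2 of day 2 (log2 fold change between 0.40 and 0.47), and then fell. OTX2 (NM_001270525, chr14:57266623-57283411, - strand), a homeobox factor of the primed epiblast and anterior endoderm, was the exception. It was at 22.6 and 24.3 CPM at day 0, 250 and 247 at day 2, 70.7 and 67.7 at day 6 and 20.4 and 24.5 at day 10, so the rise of day 2 (log2 fold change 3.45, SE 0.12, adjusted p = 4.3e-08) was no longer measured at day 10 (-0.02).

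Of the 7 naive-state factors, 3 fell and 2 rose by day 2. PRDM14, a repressor that human ESCs need, went from 67.4 and 65.1 CPM to 11.2 and 9.08 (log2 fold change -2.66), and no count was left at day 10, at least 277.7-fold lower. NR5A2, an orphan nuclear receptor, went from 121 and 124 to 27.1 and 28.9 CPM, and TFCP2L1, a grainyhead-like factor, from 12 and 13.2 to 2.96 and 2.45. Of the 3 Krüppel-like factors, KLF2 and KLF5 rose and KLF4 did not. KLF4 was at 3.52 and 4.08 CPM at day 0, 0.997 and 2.21 at day 2 (log2 fold change -1.26, adjusted p = 0.054), 1.95 and 2.74 at day 6 and 0.103 and 0.645 at day 10, where it was lower (-3.62, adjusted p = 0.00062). KLF2 had no count in WT cells at day 0 and was at 0.225 and 0.245 CPM at day 2, 2.90 and 3.30 at day 6 and 3.25 and 3.23 at day 10, at least 2.97-fold, 39.1-fold and 40.8-fold higher than the limit of detection at day 0. KLF5 (NM_001730, chr13:73629114-73651679, + strand) was at 2.16 and 2.22 CPM at day 0, 4.82 and 5.09 at day 2, 9.36 and 23.4 at day 6 and 7.47 and 6.67 at day 10. The KLF5 call at day 2 (log2 fold change 1.22, adjusted p = 0.025) was lost without any 1 of the 4 libraries (1.17 to 1.25). At day 6 it stood at 2.93 (adjusted p = 7.5e-05) and was 2.12 without replicate 2 of day 6. ESRRB, an orphan nuclear receptor central to the mouse naive state, was near the limit of detection until day 6 (at most 0.294 CPM) and at 5.88 and 3.33 CPM at day 10, a log2 fold change of 4.25 (SE 0.49, adjusted p = 2e-05). ESRRB is also known from cardiac and other energy-demanding tissue, and the 6 cardiac markers summed to between 12159.6 and 15021 CPM in those libraries. Whether cardiac cells express ESRRB here was not tested.

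LIN28A and LIN28B kept much of their level until day 6. LIN28A was at 1955 and 1907 CPM at day 0, 1372 and 1379 at day 2, 1013 and 1033 at day 6 and 111 and 86.8 at day 10, and LIN28B at 397 and 379, 322 and 319, 289 and 264, and 81.4 and 73.7. Thus LIN28A still held 53.0% of its starting level at day 6, when POU5F1 held 0.451% of its own. SALL4, a zinc finger factor bound to POU5F1, was at 119.5 and 117 CPM at day 0 and 119 and 127 at day 2 and had fallen to 53.7 and 67.2 by day 10 (log2 fold change -0.92, adjusted p = 7e-05). NR6A1 (GCNF), a nuclear receptor that represses POU5F1 during differentiation, was at 241 and 237 CPM at day 0, 278 and 282 at day 2 and 134 and 154 at day 6. Its rise at day 2 (log2 fold change 0.28, adjusted p = 0.048) was lost without any 1 of the 4 libraries (0.25 to 0.28). TERT, the catalytic subunit of telomerase, and PHC1, a Polycomb subunit, belonged to the late class, with log2 fold changes at day 6 of -3.5 and -3.45. SFRP2 was also late, at 194 and 181 CPM at day 0, 125 and 125 at day 2 and 0.780 and 0.626 at day 6. LCK, a kinase best known from T cells, went from 42.9 and 44.3 to 17.1 and 12.9 CPM by day 2, and the 4 T cell markers CD3E, CD3D, CD2 and PTPRC summed to at most 0.124 CPM in any library before day 10.

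The shRNA lines also left the pluripotent state. From day 0 to day 6, 29 of the 38 genes were lower and 7 higher in NKX2-5 shRNA cells at 5% FDR, where 55.5% of all genes passed (26.9% lower and 28.6% higher). The counts were 32 and 4 in the ZEB2 shRNA line (63.3% of all genes, 34% lower and 29.3% higher) and 28 and 8 in the ZNF503 shRNA line (68.4%, 34.7% lower and 33.7% higher). In each line 20 were lower and 2 higher by the limit of 8-fold at 1% FDR. Of all genes, 5.88% were called lower and 5.57% higher in NKX2-5 (11.4% in all), 4.01% and 5.95% in ZEB2 (9.95%) and 5.53% and 6.03% in ZNF503 shRNA cells (11.6%). The medians were -3.45, -3.19 and -3.14. POU5F1, NANOG and SOX2 were among the lower genes in every line, with log2 fold changes of at least 5.46 in size. The 2 higher genes were KLF2 and KLF5 in each line, and KLF5 rose most in ZNF503 shRNA cells, from 1.26 and 1.26 CPM to 108 and 119 (6.52, SE 0.17, adjusted p = 2.6e-13). KLF2 was near the limit of detection at day 0, at 0 and 0.0906 CPM in ZEB2 and 0 and 0.0276 CPM in ZNF503 shRNA cells, and the size of its rise moved by more than 1.5 times without either of those libraries (4.17 to 9.12 and 4.70 to 7.99 on the log2 scale, the highest against a library with no count).

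**Figure D3:**
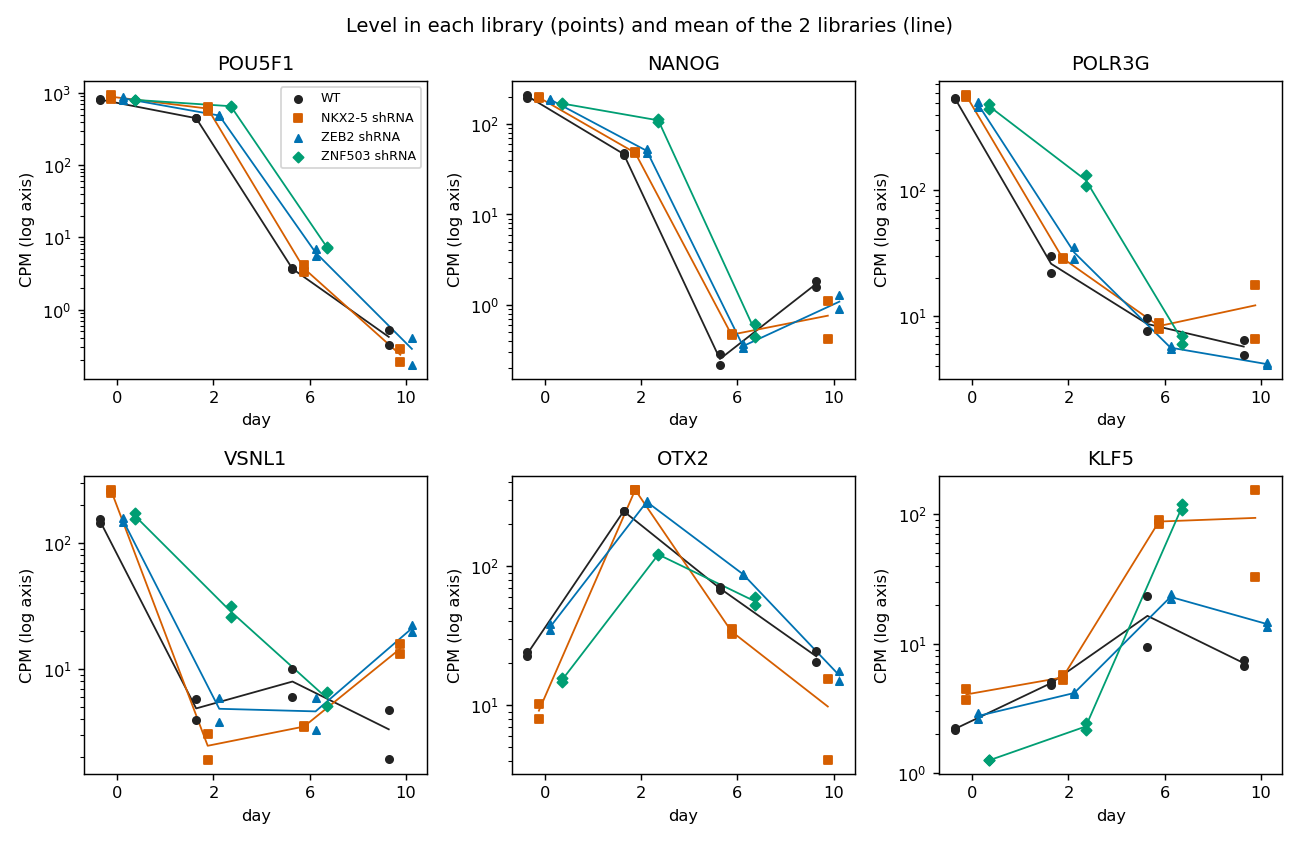
Level of POU5F1, NANOG, POLR3G, VSNL1, OTX2 and KLF5 (CPM, log axis) by day of differentiation, with days evenly spaced, in WT, NKX2-5, ZEB2 and ZNF503 shRNA cells. Points are libraries and lines join the means of 2 libraries. At day 2 the ZNF503 shRNA libraries lie above WT for NANOG, POLR3G and VSNL1 and below it for OTX2.

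In undifferentiated cells the core factors did not pass the test in any line, and a few other members did. Against WT at day 0, 10 of 37 genes tested passed 5% FDR in NKX2-5 shRNA cells (4 higher, 6 lower, beside 15.9% of all genes, 8.23% higher and 7.64% lower). The ZEB2 shRNA line had 3 such genes (3.93% of all genes), and 5 passed in the ZNF503 shRNA line (4 higher, 1 lower, beside 7.53% of all genes, 4.01% higher and 3.52% lower). KLF2 was too low to be tested. The study's limit of 2-fold at 10% FDR was met by 3, 0 and 1 genes, where 4.03%, 2.2% and 2.56% of all genes were called. An unadjusted p under 0.05 was found for 15 genes in NKX2-5, 10 in ZEB2 and 22 in ZNF503 shRNA cells, and DESeq2 also called 0 in ZEB2 shRNA cells. POU5F1 stood at 825 and 954 CPM in NKX2-5, 802 and 891 in ZEB2 and 808 and 804 in ZNF503 shRNA cells, a range that includes the WT libraries. NANOG in ZNF503 shRNA cells was at 166 and 171 CPM, below both WT libraries (log2 fold change -0.28, SE 0.08, adjusted p = 0.061).

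The NKX2-5 shRNA cells held the clearer differences of day 0. DPPA2 was at 49.7 and 48.1 CPM there and at 23.3 and 22.6 in WT cells (log2 fold change 1.07, SE 0.12, adjusted p = 0.00027). OTX2 was at 8.01 and 10.3 CPM against 22.6 and 24.3 (-1.37, SE 0.14, adjusted p = 0.00019), NR6A1 at 126 and 153 against 241 and 237 (-0.79, SE 0.10, adjusted p = 0.00072), and VSNL1 at 249 and 264 against 145 and 155 (0.75, SE 0.09, adjusted p = 0.00044). These 4 genes passed whichever library was left out. The remaining 6, which were SOX3, KLF5, ZIC2, SALL2, L1TD1 and HESX1, did not pass without at least 1 of the 4 libraries, and HESX1, called at -1.20, was lost without any 1 of them (-1.45 to -0.90). In ZEB2 shRNA cells PRDM14 (104 and 109 CPM, 0.66) and OTX2 (35.0 and 38.5 CPM, 0.62) were higher and DPPA2 (15.7 and 16.8 CPM, -0.52) lower. In ZNF503 shRNA cells THY1 (0.65), NR6A1 (0.56), SFRP2 (0.54) and ESRRB (1.91) were higher and OTX2 (15.6 and 14.7 CPM, -0.64) lower. Every one of these 8 calls was lost without any 1 of the libraries compared, with log2 fold changes that kept their direction. ESRRB was at 0.899 and 1.01 CPM against 0.294 and 0.209 in WT cells, with a range of 1.69 to 2.17 on the log2 scale when libraries were left out.

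At day 2 most of the listed genes that passed 5% FDR were higher in ZNF503 shRNA cells than in WT cells. A further list of genes of the undifferentiated state, given below, did not show this. Of 36 genes tested, 19 were higher and 4 lower at 5% FDR, where 26.9% of all 16521 genes passed (13.1% higher and 13.8% lower). The median log2 fold change was 0.48, and that of all genes was -0.00912. All 3 core factors were among the higher genes, as were 4 of 5 germline and early embryo genes tested. KLF2 and DPPA3 were too low to be tested. By the limit of 4-fold at 10% FDR, 3 were called higher and 0 lower, beside 2.8% of all genes.

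NANOG was at 114 and 105 CPM in ZNF503 shRNA cells and 47.2 and 45.9 in WT cells, 2.27-fold higher (log2 fold change 1.18, SE 0.10, adjusted p = 5.4e-07). SOX2 was at 83.9 and 71.5 against 39.8 and 33.1 CPM (1.04, SE 0.12, adjusted p = 1.3e-05) and POU5F1 at 672 and 643 against 451 and 447 (0.50, SE 0.08, adjusted p = 0.00028). No library of one line overlapped with the other in any of the 3 genes. POLR3G, which had fallen so steeply in WT cells, was at 133 and 108 against 30.2 and 22.0 CPM, 4.42-fold higher (2.15, SE 0.15, adjusted p = 9.3e-08), and VSNL1 at 31.5 and 25.7 against 5.85 and 3.92, 5.53-fold higher (2.47, SE 0.25, adjusted p = 4.7e-06). Both remained below their own level of day 0, at 25.9% and 17.3% of it. USP44 was at 136 and 122 against 48.5 and 43.1 CPM (1.44, adjusted p = 2.5e-07) and NR5A2 at 72.8 and 70.7 against 27.1 and 28.9 (1.31, adjusted p = 2.5e-07). SOX3 had the largest estimate, at 2.63 and 2.25 against 0.257 and 0.613 CPM (2.57, SE 0.56, adjusted p = 0.0035), yet its call was lost without replicate 1 of WT (1.93) and it was 3.20 without replicate 2 of WT. UTF1 (1.39, adjusted p = 0.0057) was lost without replicate 1 of either line, within a range of 1.11 to 1.59.

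The other higher genes had differences from 0.46 for FOXO1 and ZFP42 to 1.09 for TFCP2L1. The smaller of them, FOXO1 and ZFP42 included, were not followed with libraries left out. L1TD1 was at 861 and 885 CPM against 513 and 493, and DPPA4 at 739.5 and 682 against 399.7 and 389.8. The 4 lower genes were OTX2, KLF5, VRTN and ZIC2. OTX2, which rises at this day, was at 121 and 121 CPM against 250 and 247 (-1.09, SE 0.07, adjusted p = 7.9e-08), and KLF5 at 2.43 and 2.16 against 4.82 and 5.09 (-1.15, SE 0.22, adjusted p = 0.0012). VRTN (-0.52) lost its call without replicate 1 of ZNF503 shRNA cells or without either WT library (-0.67 to -0.38), and ZIC2 (-0.28) without any 1 of the 4 libraries (-0.32 to -0.24). LIN28A, LIN28B, SALL2, SALL4, JARID2, DPPA2 and TERT were among the 13 genes that did not pass.

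Values of other cell states moved along at day 2. The 5 mesendoderm markers (TBXT, MIXL1, EOMES, MESP1 and GSC) summed to between 375 and 475 CPM in ZNF503 shRNA cells, 784 to 825 in WT, 721 to 804 in NKX2-5 and 773 to 821 in ZEB2 shRNA cells, and 5 of 5 were lower than in WT cells at 5% FDR. The 5 endoderm markers (SOX17, FOXA2, AFP, APOA2 and TTR) summed to 25.9 to 35.0 CPM in ZNF503 shRNA cells and 109 to 117 in WT cells, with 3 of 3 tested lower. The part of these cell states in the difference of the listed genes was not tested.

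**Figure D4:**
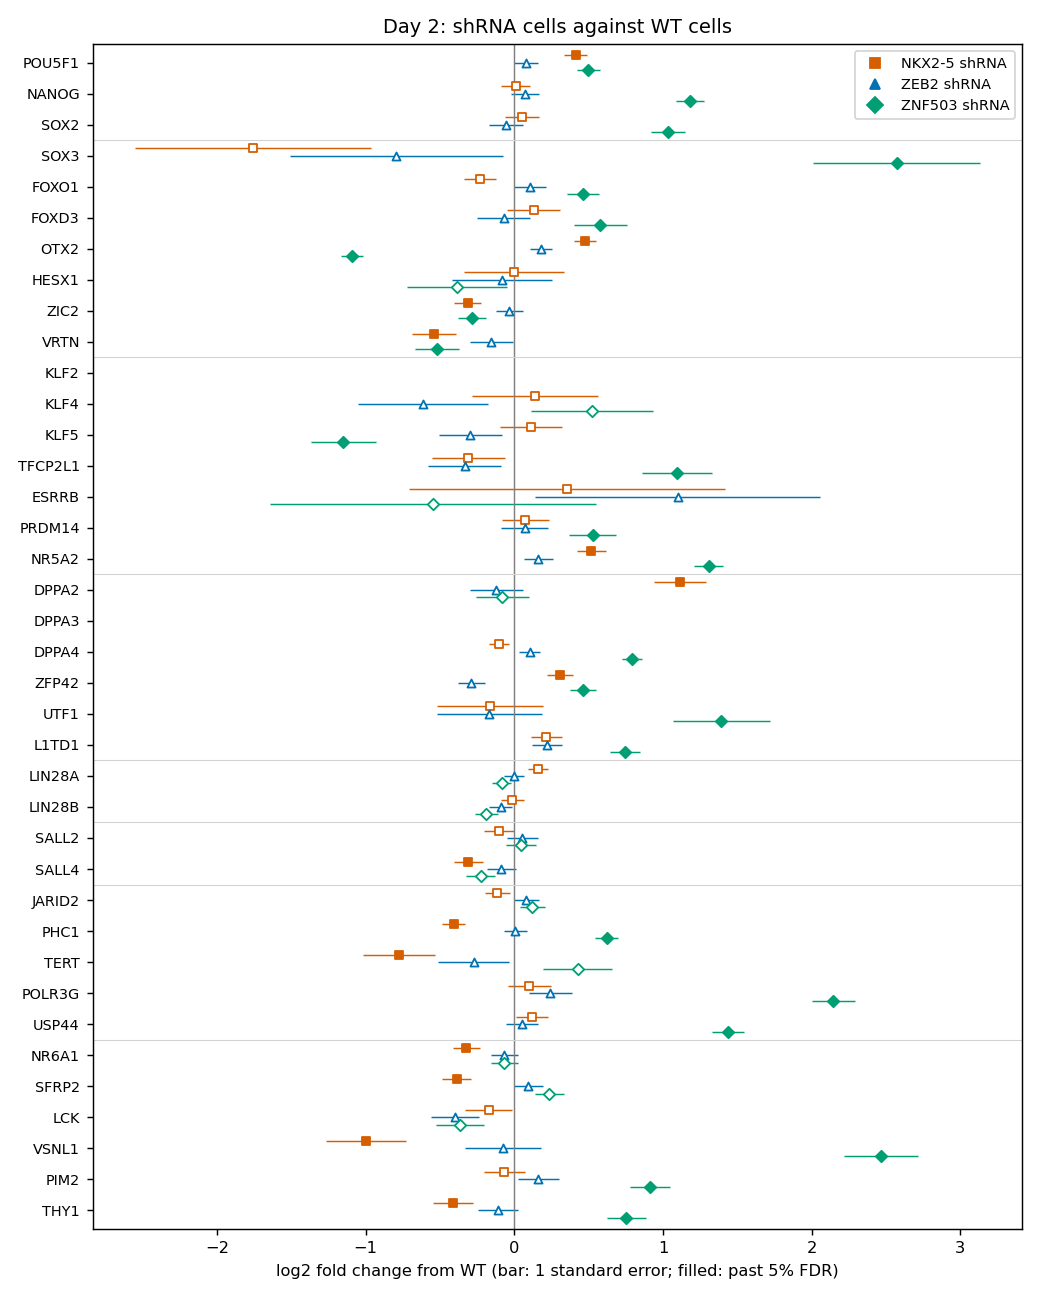
Log2 fold change of each gene at day 2 in NKX2-5, ZEB2 and ZNF503 shRNA cells against WT cells (horizontal), with genes by role (vertical). Points are edgeR estimates from 2 libraries a group, bars are 1 SE, filled points passed 5% FDR, and genes that were not tested have no point. In ZNF503 shRNA cells 19 genes lie to the right of 0 with a filled point and 4 to the left, and in ZEB2 shRNA cells no point is filled.

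The other lines did not show this at day 2. ZEB2 shRNA cells had 0 of 36 genes past 5% FDR (0.49% of all genes passed) and 0 by the study's limit (0.133%), by edgeR and by DESeq2 alike, with 4 at an unadjusted p under 0.05 (L1TD1, LCK, OTX2 and ZFP42). NANOG there was at 53.2 and 47.7 CPM and POLR3G at 35.5 and 28.6. NKX2-5 shRNA cells had 5 higher and 9 lower genes (26.7% of all genes passed, 13% higher and 13.6% lower) and 0 by the study's limit (1.19%, and 0 by DESeq2), with 17 at an unadjusted p under 0.05 and a median of -0.04. DPPA2 (17.7 and 15.2 against 8.17 and 6.62 CPM, log2 fold change 1.11, SE 0.17, adjusted p = 0.00043) was higher there, as at day 0. POU5F1 was at 572 and 647 CPM (0.41, SE 0.08, adjusted p = 0.0017) and OTX2 at 353 and 355 (0.48, adjusted p = 0.00032), and NR5A2 (0.52) and ZFP42 (0.31) were also higher. The lower genes were VSNL1 (3.05 and 1.90 CPM, -1, adjusted p = 0.014), TERT, VRTN, THY1, PHC1, SFRP2, NR6A1, ZIC2 and SALL4, of which PHC1 alone passed whichever library was left out. ZFP42, VSNL1, TERT, VRTN, THY1, SFRP2, NR6A1, ZIC2 and SALL4 lost their calls without 2 or 3 of the 4 libraries, with each gene's direction kept.

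ZNF503 shRNA cells were also compared with the other shRNA lines, in comparisons that use no WT library. Against NKX2-5 shRNA cells at day 2, 20 of 36 genes were higher and 4 lower at 5% FDR (39.5% of all genes passed, 19.7% higher and 19.8% lower), with 3 called by the study's limit (3.98%). Against ZEB2 shRNA cells, 21 were higher and 2 lower (29.3% of all genes, 14.8% higher and 14.5% lower), with 2 called (2.83%). The medians were 0.449 and 0.49. POLR3G was higher by 2.04 (SE 0.14, adjusted p = 7.7e-08) and 1.90 (SE 0.14, adjusted p = 1.9e-07), VSNL1 by 3.46 and 2.54, NANOG by 1.17 and 1.11 and SOX2 by 0.98 and 1.09 on the log2 scale. POU5F1 was higher than in ZEB2 shRNA cells (0.42, adjusted p = 0.00093) and not detectably different from NKX2-5 shRNA cells (0.09, adjusted p = 0.41). OTX2 was lower in both comparisons (-1.57 and -1.27). SOX3 was higher by 4.33 against NKX2-5 shRNA cells, whose libraries were at 0.177 and 0 CPM, with sizes of 3.78 to 9.51 over the libraries left out, the highest against a library with no count.

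These differences were also listed by the WT course. A gene that fell early could stand higher through a smaller fall, and a gene that did not fall could not. The order of the classes is thus partly set by their definition, and the counts are a description only. Of the genes that fell early in WT cells, 19 were tested at day 2, and 16 of them were higher in ZNF503 than in NKX2-5 shRNA cells and 1, DPPA2, was lower (median 0.983). Of the 8 late genes 3 were higher and 0 lower (median 0.298), and of the 9 genes tested that did not fall 2-fold by day 6, 1 was higher and 3 were lower (median -0.247). Against ZEB2 shRNA cells the counts were 16 higher and 0 lower, 4 and 0, and 1 and 2, with medians of 0.863, 0.28 and -0.14.

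Because the lines differed slightly at day 0, the change from day 0 to day 2 was compared between lines by an interaction term. In ZNF503 shRNA cells 16 of 38 genes fell less or rose more than in WT cells and 3 changed in the other direction at 5% FDR (25% of all 17345 genes passed, 13.6% and 11.4% in these directions), with 2 called by the limit of 4-fold at 10% FDR (3.4%). The median was 0.392. The 2 were POLR3G (2.39, SE 0.17, adjusted p = 6.1e-08), which kept 25.9% of its day 0 level in ZNF503 shRNA cells and 4.81% in WT cells, and VSNL1 (2.35, SE 0.24, adjusted p = 3.4e-06), with 17.3% and 3.26%. NANOG kept 65.1% of its day 0 level against 22.9% (1.48, SE 0.11, adjusted p = 1.6e-07), SOX2 51.6% against 20.0% (1.34, SE 0.14, adjusted p = 4e-06) and POU5F1 81.6% against 55.1% (0.54, SE 0.12, adjusted p = 0.0031). All 3 core factors thus differed in their change beyond the spread between replicates. NR6A1 changed in the other direction (-0.60, adjusted p = 0.0053), since it was at 352 and 354 CPM at day 0 in ZNF503 shRNA cells and at 265 and 289 at day 2. SOX3 (1.93), ZIC2 (-0.48) and OTX2 (-0.43) lost their calls without 4, 5 and 7 of the 8 libraries.

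In NKX2-5 shRNA cells 4 genes differed in their change from day 0 to day 2 (3.99% of all genes passed) and 0 were called (0.934%, and 1 by DESeq2), with 15 at an unadjusted p under 0.05. OTX2 rose more (1.85, SE 0.14, adjusted p = 1.4e-06), having started lower and ended higher than in WT cells, and VSNL1 fell more (-1.74, SE 0.27, adjusted p = 0.0012). L1TD1 (0.74) and THY1 (-0.69) lost their calls without 3 and 6 of the 8 libraries. In ZEB2 shRNA cells 0 genes passed by edgeR (1.83% of all genes did) and 0 were called (0.502%), with 10 at an unadjusted p under 0.05, while DESeq2 put 3 past 5% FDR, all lower, and called 0.

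At day 6 the core of the network was nearly gone from every line. In NKX2-5 and ZNF503 shRNA cells many members differed from WT cells, as did a large share of all genes. A difference of members was therefore not particular to the network. Of 34 genes tested, 13 were higher and 10 lower in NKX2-5 shRNA cells at 5% FDR, where 49.1% of all genes passed (24.4% higher and 24.7% lower), and 17 were higher and 6 lower in ZNF503 shRNA cells, where 55.7% passed (27.2% higher and 28.5% lower). In ZEB2 shRNA cells 6 were higher and 1 lower, beside 11% of all genes (5.67% higher and 5.33% lower). By the limit of 8-fold at 1% FDR, 1 was called in NKX2-5 shRNA cells (4.71% of all genes were), 0 in ZEB2 (0.462%) and 0 in ZNF503 shRNA cells (3.91%). At an unadjusted p under 0.05 there were 17 genes in ZEB2 and 25 in ZNF503 shRNA cells, and DESeq2 called 0 in both. FOXD3, ESRRB, UTF1 and LCK were too low to be tested. The medians were 0.186, 0.326 and 0.598 for NKX2-5, ZEB2 and ZNF503 shRNA cells. They include genes that were low in WT cells and had little room to be lower. Among these were PRDM14 (0 and 0.144 CPM) and SOX3 (0.303 and 0.433 CPM). The 3 comparisons share the WT libraries.

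Most naive-state factors tested were higher in the NKX2-5 and ZNF503 shRNA lines, and DPPA3 was higher in all 3. Of the 6 naive-state factors tested, 4 were higher in NKX2-5 and 4 in ZNF503 shRNA cells (KLF4, KLF5, TFCP2L1 and NR5A2 in both), KLF2 was lower in both, and none passed in ZEB2 shRNA cells. KLF5 was at 90.7 and 84.5 CPM in NKX2-5 and 108 and 119 in ZNF503 shRNA cells, against 9.36 and 23.4 in WT cells (log2 fold change 2.39, SE 0.29, adjusted p = 2.3e-05, and 2.77, SE 0.29, adjusted p = 8.1e-06). TFCP2L1 was at 44.4 and 48.3 in NKX2-5 and 30 and 26.2 in ZNF503 shRNA cells against 5.29 and 9.65 in WT cells (2.6 and 1.88), above their levels of day 0. KLF4, a reprogramming factor also expressed in epithelia, was at 13.0 and 13.7 and at 7.48 and 7.90 against 1.95 and 2.74 CPM (2.48 and 1.69). DPPA3 was at 13.1 and 13.3 CPM in NKX2-5 shRNA cells against 1.43 and 1.61, the one gene called there by the study's limit (3.10, SE 0.24, adjusted p = 5.7e-07), and at 5.85 and 7.09 in ZNF503 shRNA cells (2.07). KLF2 was at 1.10 and 0.901 and at 1.12 and 0.486 against 2.90 and 3.30 CPM (-1.65 and -1.99). The sizes for KLF5, HESX1, ZIC2 and NR5A2 rested partly on replicate 2 of WT at day 6, which held more of these genes than replicate 1. Without it they were 3.21, 2.70, 2.36 and 2.27 in NKX2-5 and 3.58, 2.41, 2.74 and 2.32 in ZNF503 shRNA cells, and the calls were kept.

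Further members moved in both lines. NR6A1 was at 415 and 402 CPM in NKX2-5 and 408 and 372 in ZNF503 shRNA cells against 134 and 154 (1.5, adjusted p = 3.6e-07, and 1.43, adjusted p = 6.3e-07), a level above that of WT cells on any day. In ZNF503 shRNA cells NR6A1 was already at 352 and 354 CPM at day 0, whereas in NKX2-5 shRNA cells it was then below WT. ZIC2 (1.68 and 2.06), HESX1 (2.00 and 1.72), PIM2 (1.21 and 1.26), FOXO1 (0.99 and 0.64), SALL4 (0.45 and 0.92), JARID2 (0.56 and 0.37) and ZFP42 (1.49 and 0.45) were higher in both as well. L1TD1 was lower, at 23.1 and 20.8 and at 30.5 and 35.9 against 98.3 and 97.7 CPM (-2.17, adjusted p = 4.4e-08, and -1.56, adjusted p = 7.7e-07), as were VRTN (-2.11 and -0.94), THY1 (-1.52 and -1.02) and LIN28B (-0.80 and -1.33). The 2 LIN28 genes parted in ZNF503 shRNA cells, where LIN28A was at 1474 and 1538 CPM against 1013 and 1033 (0.55, SE 0.10, adjusted p = 0.00065) and LIN28B at 101 and 119.9 against 289 and 264 (-1.33, SE 0.12, adjusted p = 2.8e-06). SOX2 was lower in NKX2-5 shRNA cells (0.404 and 0.621 against 2.47 and 2.55 CPM, -2.25, adjusted p = 0.00091). POU5F1 was higher in ZNF503 shRNA cells, at 7.17 and 7.33 against 3.60 and 3.75 CPM (0.97, SE 0.24, adjusted p = 0.0045), levels under 1% of day 0 in both lines. Libraries were left out in turn for 20 and 17 of these genes. Among those followed, VSNL1, USP44 and SALL2 lost their calls in NKX2-5 shRNA cells (VSNL1 without replicate 2 of WT, at -0.79). SOX3 (1.23 to 1.89) and OTX2 (-0.42 to -0.22) lost theirs in ZNF503 shRNA cells. The smaller higher differences were not followed in this way. Among them were FOXO1, SALL4 and JARID2 in both lines, and ZFP42 and LIN28A in ZNF503 shRNA cells.

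These differences went along with a change in cell type. The 6 cardiac markers summed to between 7945 and 9815 CPM in WT cells at day 6, 36.6 to 45.6 in NKX2-5, 151 to 202 in ZNF503 and 4252 to 4702 in ZEB2 shRNA cells. The 5 endoderm markers summed to 322 to 656 in WT, 3119 to 3219 in NKX2-5, 2341 to 2473 in ZNF503 and 300.3 to 425 in ZEB2 shRNA cells, and 5 of 5 were higher in NKX2-5 and in ZNF503 shRNA cells. Whether the higher levels of KLF4, KLF5, TFCP2L1 and NR5A2 came from endoderm was not tested. The 5 markers of primordial germ cells summed to 35.6 to 43.2 CPM in NKX2-5, 50.3 to 61.6 in ZNF503 and 16.4 to 24.2 in ZEB2 shRNA cells. In WT cells they summed to 7.80 to 10.9 CPM, and their part in the level of DPPA3 was not tested either.

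In the ZEB2 shRNA line at day 6 the largest difference past 5% FDR was that of L1TD1. It was at 429 and 473 CPM against 98.3 and 97.7 in WT cells, 4.62-fold higher (log2 fold change 2.21, SE 0.12, adjusted p = 1e-06), and VRTN at 55.2 and 53.3 against 18.8 and 17.3, 3.02-fold higher (1.59, SE 0.18, adjusted p = 0.0001). Both passed whichever library was left out, and both were lower in the other 2 lines. ZIC2 (1.20), DPPA3 (1.15), HESX1 (1.09) and USP44 (0.62) were higher and SOX2 (0.916 and 0.295 CPM, -1.81) was lower, and each of these 5 calls was lost without at least 1 library. ZIC2 and SOX2 were lost without replicate 2 of ZEB2 shRNA cells (0.78 to 1.88 and -3.06 to -1.45 over the libraries left out). POU5F1 was at 5.49 and 6.86 against 3.60 and 3.75 CPM (0.73, adjusted p = 0.076). The mesendoderm markers summed to 171 to 188 CPM in these cells and 12.9 to 14.3 in WT cells, and their part in the difference was not tested.

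**Figure D5:**
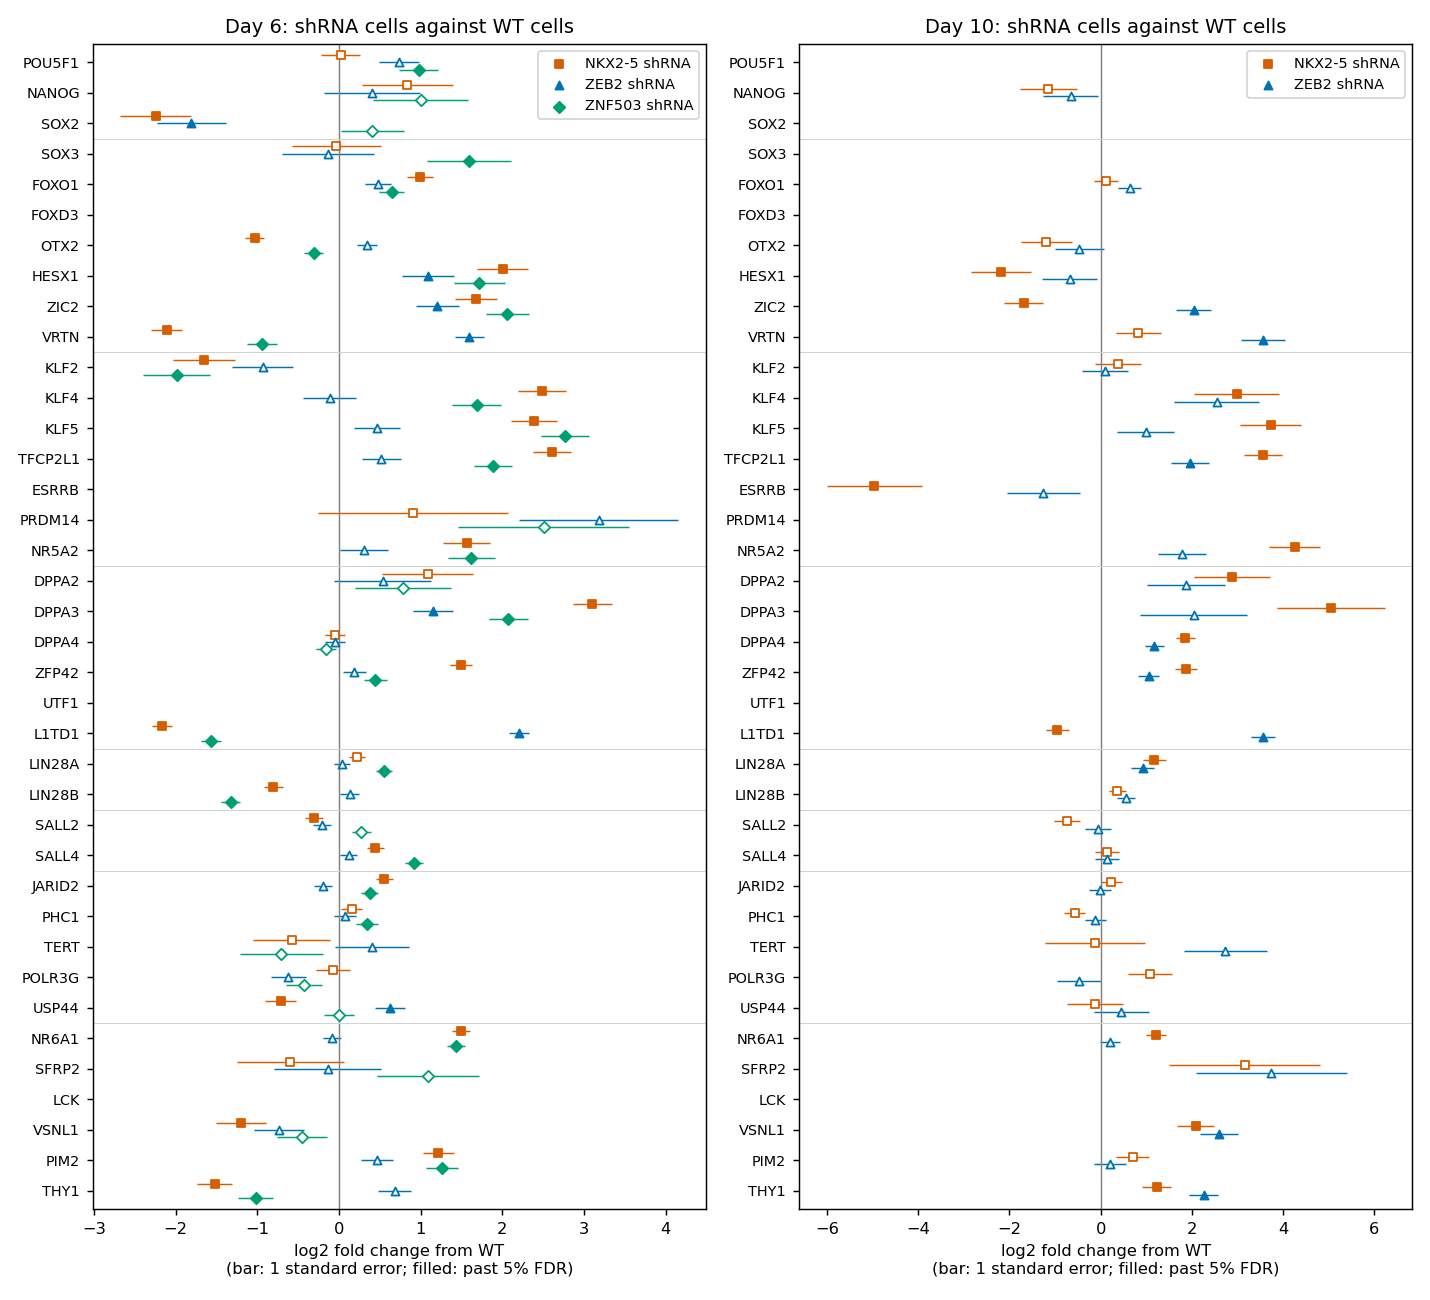
Log2 fold change of each gene against WT cells at day 6 (NKX2-5, ZEB2 and ZNF503 shRNA cells) and at day 10 (NKX2-5 and ZEB2 shRNA cells), with genes by role (vertical). Points are edgeR estimates from 2 libraries a group, bars are 1 SE, filled points passed 5% FDR, and genes that were not tested have no point. KLF5, TFCP2L1 and NR5A2 lie to the right in NKX2-5 shRNA cells on both days, and L1TD1 and VRTN in ZEB2 shRNA cells.

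At day 10 more of the genes that could be tested were higher than lower in both lines measured. Of 31 genes tested, 12 were higher and 4 lower in NKX2-5 shRNA cells at 5% FDR (43.9% of all genes passed, 23.3% higher and 20.6% lower) and 9 higher and 0 lower in ZEB2 shRNA cells (18.2%, 10.6% higher and 7.67% lower). By the limit of 8-fold at 1% FDR, 4 and 2 were called (7.31% and 1.46%). The medians were 0.701 and 0.918. A gene near the limit of detection in WT cells passed the filter only where another line expressed it. Such genes, among them DPPA2 and TERT (WT means of 0.131 and 0.103 CPM), had little room to be lower. The medians and the count of higher genes in NKX2-5 shRNA cells include such genes, and their part in the excess was not tested. POU5F1, SOX2, SOX3, FOXD3, PRDM14, UTF1 and LCK were too low to be tested in any line, and NANOG passed in neither (1.10 and 0.425 CPM in NKX2-5 and 0.896 and 1.28 in ZEB2 shRNA cells against 1.60 and 1.83).

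In NKX2-5 shRNA cells TFCP2L1 was at 24.7 and 39.1 CPM against 3.61 and 1.61 in WT cells (log2 fold change 3.56, SE 0.43, adjusted p = 0.00099) and NR5A2 at 87.5 and 33.0 against 4.18 and 1.94 (4.25, SE 0.56, adjusted p = 0.0014). The lowest NKX2-5 shRNA library lay above the highest WT library in both, and both calls at 5% FDR were kept whichever library was left out (3.16 to 4.31 and 3.36 to 4.97). KLF5 was at 154 and 32.8 against 7.47 and 6.67 CPM (3.73, SE 0.67, adjusted p = 0.0045), and its call was lost without either WT library, with sizes of 2.21 to 4.45 over the libraries left out. DPPA3 was at 20.3 and 2.93 CPM against 0.567 and 0 (5.05, adjusted p = 0.012), a size that ran from 3.01 to 11 over the libraries left out, the highest against a library with no count, and its call was lost without replicate 4 of WT. ESRRB was the gene called lower, at 0.286 and 0 CPM against 5.88 and 3.33 (-4.96, SE 1.04, adjusted p = 0.0082), and its call was lost without replicate 3 of WT (-9.64 to -4.00 over the libraries left out, the lowest with no count in the NKX2-5 shRNA library that remained). The 2 NKX2-5 shRNA libraries of day 10 differed from each other by several fold in KLF5, NR5A2 and DPPA3. ZFP42 (32.6 and 45.5 against 10.8 and 10.5 CPM, 1.87), DPPA4 (40.9 and 47.8 against 12.6 and 11.9, 1.85), NR6A1 (241 and 175 against 86.0 and 94.2, 1.21), LIN28A (175 and 271 against 111 and 86.8, 1.18), KLF4 (2.98), VSNL1 (2.08) and THY1 (1.23) were higher, and HESX1, ZIC2 and L1TD1 lower (-2.18, -1.69 and -0.95). DPPA2 (1.48 and 0.614 CPM) was read against at most 3 counts in WT cells. Of the 14 calls for which libraries were left out, 5 were kept in each case (NR5A2, TFCP2L1, VSNL1, ZFP42 and DPPA4). Besides KLF5, DPPA3 and ESRRB, the calls of KLF4 (1.97 to 4.56), DPPA2 (2.11 to 3.38), THY1 (0.93 to 1.68), HESX1 (-2.67 to -1.55), ZIC2 (-1.83 to -1.53) and L1TD1 (-1.14 to -0.76) were lost in at least 1.

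In ZEB2 shRNA cells L1TD1 was at 61.6 and 64.4 CPM against 4.74 and 6.02 in WT cells (3.55, SE 0.26, adjusted p = 0.002), the only one of the 9 calls that was kept whichever library was left out. VRTN was at 10.4 and 7.47 against 0.670 and 0.860 CPM (3.56, SE 0.49, adjusted p = 0.0049), lost without replicate 3 of either line, at 3.30 to 3.78 over the libraries left out. THY1 (21.7 and 23.6 against 5.82 and 3.44 CPM, 2.26), VSNL1 (19.8 and 22.3 against 4.74 and 1.94, 2.6), ZIC2 (2.04), TFCP2L1 (1.96), DPPA4 (1.18), ZFP42 (1.05) and LIN28A (0.92) were the others. No library of the 2 lines overlapped for L1TD1, VRTN, THY1 or VSNL1. The cardiac markers summed to 12159.6 to 15021 CPM in WT, 53.3 to 312 in NKX2-5 and 3430.1 to 5189.9 in ZEB2 shRNA cells at day 10, and the endoderm markers to 1460.4 to 3586, 26918 to 38206 and 6416 to 7782. The 5 blood markers summed to 864 to 999 CPM in NKX2-5 shRNA cells and 9.79 to 38.8 in WT cells. The part of these cell types in the differences was not tested.

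A further 35 genes of the undifferentiated state, signals, surface markers and regulators outside the 38, were read from the same fits, 33 of them tested over time. In WT cells 15 were lower and 9 higher at day 2, 29 and 3 at day 6 and 30 and 1 at day 10 at 5% FDR, beside 44.1%, 60.9% and 73.8% of all genes, with medians of -0.409, -3.44 and -4.4. FGF4, a growth factor that POU5F1 and SOX2 drive, rose at day 2 (log2 fold change 5.18), and FGF2 (-1.60) and DNMT3B, a de novo DNA methyltransferase (-1.58), fell. In ZNF503 shRNA cells at day 2, 7 of 32 were higher and 10 lower than in WT cells (26.9% of all genes passed), with a median of 0.0304. Thus FGF2 (1.10, SE 0.10, adjusted p = 1.6e-06) and PODXL, a surface sialomucin (1.69), were higher and FGF4 (-0.90) and TBX3, a T-box factor (-3.33), lower, and the count of higher genes among these 32 did not exceed that of lower ones as it did among the 38. In ZEB2 shRNA cells at day 6, 14 of 29 were higher and 0 lower (11% of all genes passed). Among the 14 were NODAL, a growth factor of the TGF-beta family, at 5.17 and its antagonists LEFTY2 and LEFTY1 at 7.20 and 4.48 on the log2 scale.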

How the data were processed

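The authors deposited counts of reads for each RefSeq transcript, which they had not normalized. Per the study's methods, stranded total RNA was sequenced in read pairs and mapped with Tophat 2.0.14 (using Bowtie 2.2.1.0 and SAMtools 0.1.19.0) to the human build GRCh37, hg19, with 2 mismatches and 1 best hit, and RSeQC counted the reads over RefSeq gene regions. The strand setting of the counting is not given in the sources used here. Reads of genes that overlap on opposite strands may therefore mix. These are POU5F1 with TCF19, PHC1 with M6PR, POLR3G with MBLAC2, and antisense genes at LIN28B, FOXD3 and THY1. KLF4, SALL2 and TERT also overlap with opposite-strand genes that have no symbol.

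Of 41627 transcript accessions, 40285 (96.8%) matched the RefSeq annotation, and the transcript with the largest total stood for each of 23189 symbols. In 4 of 34 columns (WT and ZEB2 shRNA day 10, replicates 1 and 2) the values do not follow the accessions, and 30 libraries were used. Differential expression was computed with edgeR 4.0.16 in R 4.3.3 (TMM, filterByExpr, glmQLFit and glmQLFTest, Benjamini-Hochberg adjustment over all genes tested, prior count 0.125), which was tested on simulated data. Lines were compared in a fit of all groups of that day, days in a fit of all groups of that line, and the interaction came from a fit of every group of days 0 and 2. The SE is the log2 fold change over the square root of F. Levels are CPM with TMM factors over the 30 libraries. They are not per length and are compared only within a gene. Genes were called at 2-fold and 10% FDR (day 0), 4-fold and 10% (day 2) and 8-fold and 1% (days 6 and 10), the study's limits, and also at 5% FDR. For changes over time the limits of the later day were used. A count of 3 was the limit of detection. A fold against a group at 0 is a bound against that count, and counting error is all that this limit covers.

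The genes named in each comparison are POU5F1, NANOG, SOX2 and those past 5% FDR, up to 10 in each direction by size. Only these were followed under the alternatives below, and smaller differences given above were not followed singly. The 38 genes, the lists and the tests were chosen with earlier results of these data known. The series describes its samples as biological replicates. The p-values rest on a spread between replicates that was estimated jointly over all groups of a fit, with 2 libraries a group. At day 10 the NKX2-5 shRNA libraries thus also entered the spread used for ZEB2 shRNA against WT cells. Alternatives were other scalings (RLE factors, no TMM factors), no filter, DESeq2 1.42.0, 1 fit of all libraries, sums of transcripts, the replicate number as a block, and each library left out.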

Additional observations from a re-analysis of the deposited data

Results flagged for a closer look

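The change from day 0 to day 2 differed between ZNF503 shRNA and WT cells, by the interaction term, for 2 genes past the limit of 4-fold at 10% FDR. POLR3G fell less in ZNF503 shRNA cells by 2.39 on the log2 scale (SE 0.17, adjusted p = 6.1e-08, edgeR). VSNL1 fell less by 2.35 (SE 0.24, adjusted p = 3.4e-06). In both genes the 2 ZNF503 shRNA libraries of day 2 lay above the 2 WT libraries.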

How the results depend on the processing

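Of 3180 values recomputed under the alternatives for 283 log2 fold changes of named genes, 2876 kept their direction and their side of 5% FDR, 276 no longer passed, 7 newly passed and 21 changed sign. The sign changes were all in POU5F1, NANOG or SOX2, in comparisons where they had not passed. Without TMM factors they were POU5F1 in ZNF503 shRNA against WT at day 0 (0.0125) and NANOG and SOX2 in NKX2-5 shRNA against WT at day 2 (-0.12 and -0.077). With 1 library left out in turn, the values that crossed 0 ran, against WT, from -0.00021 to 0.21 (POU5F1, NKX2-5 shRNA, day 0), -0.042 to 0.096 (POU5F1, ZEB2, day 0), -0.11 to 0.036 (SOX2, ZEB2, day 0), -0.0068 to 0.023 (NANOG, NKX2-5, day 2), -0.061 to 0.19 (SOX2, NKX2-5, day 2), -0.0016 to 0.14 (NANOG, ZEB2, day 2), -0.17 to 0.084 (SOX2, ZEB2, day 2) and -0.17 to 0.17 (POU5F1, NKX2-5, day 6). They ran from -0.025 to 0.21 for POU5F1 in ZNF503 against NKX2-5 shRNA cells at day 2, and in the interaction of ZEB2 shRNA cells from -0.0076 to 0.13 for POU5F1 and -0.13 to 0.13 for SOX2. Counts of genes called by the study's limits moved by more than 1.5 times as follows. With 1 fit of all libraries the count for ZNF503 shRNA against WT at day 0 went from 1 to 0 and for ZEB2 shRNA against WT at day 6 from 0 to 1, and with no filter the latter also went to 1. The interaction of NKX2-5 shRNA cells went from 0 to 1 without TMM factors, without a filter and with DESeq2. With 1 library left out the counts ran from 2 to 5 (NKX2-5) and were 0 (ZNF503) at day 0, and ran from 0 to 1 (NKX2-5, day 2), from 1 to 3 (NKX2-5) and from 0 to 1 (ZNF503) at day 6, from 0 to 8 (NKX2-5, day 10) and from 0 to 2 (interaction of NKX2-5), and were 0 for ZEB2 shRNA cells at day 10. The cause of these moves was not tested. The replicate block moved no count of genes called by the study's limits by more than 1.5 times (ZEB2 shRNA cells at day 10 went from 2 to 3). At 5% FDR it moved ZEB2 shRNA cells at day 10 from 9 to 14 higher and 0 to 1 lower, and ZNF503 against ZEB2 shRNA cells at day 2 from 2 to 4 lower. Deviations of libraries with the same number correlated between -0.299 and 0.44 over all days, and between 0.00314 and 0.44 at day 2, where 4 of 6 pairs of groups were above 0.1. Not every pair was, so the replicate numbers were not taken to pair the samples. No paired analysis was possible for day 10 of WT against day 0 or for NKX2-5 shRNA against WT at day 10 because those groups share no replicate numbers. Omitting TMM factors shifted the median of all genes by 0.130 (WT, day 2 against day 0), -0.129 (NKX2-5 shRNA against WT, day 2) and 0.182 (ZEB2 shRNA against WT, day 10). Depth limits the genes that had fallen to a few counts at days 6 and 10.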
